A study of Mus musculus with 12 samples.

Results

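Aged and young conventional CD4 T cells (Tconv) of wild-type C57BL/6 mice were compared by RNA sequencing of 4 libraries, out of 12 in the series. The 2 aged libraries came from mice of over 18 months and the 2 young ones from mice of 2 months, and they were chosen by their titles. All cells came from spleen and were sorted by flow cytometry as CD4+ Tconv. The labels state no marker that kept regulatory T cells (Treg) out of this gate. Poly(A)-enriched libraries were made with a TruSeq kit. Values of 2 further groups of the same strain and organ are set beside them: wild-type Treg sorted as CD4+CD25+ from mice of over 18 months and of 2 months (2 libraries each), and Tconv from mice of 2 months labelled Dcaf1-deficient (2 libraries). For the Dcaf1-deficient label, the cells in which Dcaf1 was removed and the means of removal are not given in the sources used here. Nothing in the labels says that libraries of a group came from separate mice. The p-values therefore measure spread between libraries within groups, pooled over all 12 libraries of the series.

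Conventional CD4 T cells leave the thymus as naive cells, which circulate through spleen and lymph nodes under control of factors such as LEF1, TCF-1 and FOXO1. Signals from the T cell receptor run through tyrosine kinases, diacylglycerol, the small G protein Ras and the MAP kinases ERK, and are limited by phosphatases. In aged mice, naive CD4 T cells give way to memory and effector cells, and inhibitory receptors such as PD-1 become common on them.

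The labelled cell type was checked first. Cd4 stood at 1813 and 2542 CPM in aged Tconv, against 1782 and 1675 CPM in young Tconv, and the 11 measured genes of the T cell receptor complex list summed to 9963 and 11408 CPM in aged Tconv, against 9680 and 8997 CPM in young Tconv. CPM, the usual depth-scaled count unit, was computed here with TMM-scaled library sizes. None of the 11 was called. Cd8a was not analysed here. Genes of other cells were present in all 4 libraries. The B cell list summed to 981 and 1292 CPM in aged Tconv, against 527 and 2111 CPM in young Tconv, and the macrophage list to 75.3 and 77.8 CPM in aged Tconv, against 19.3 and 251 CPM in young Tconv, so the young pair differed more than the groups. The platelet list summed to 98.6 and 30.8 CPM in aged Tconv, against 254 and 252 CPM in young Tconv, and the stromal and endothelial list to 229 and 178 CPM in aged Tconv, against 329 and 370.3 CPM in young Tconv. Both sums were lower in both aged libraries. Most of the platelet sum was Itgb3, an integrin chain called lower at 90.3 and 24.7 CPM in aged Tconv, against 242 and 243 CPM in young Tconv, while Pf4, a defining platelet gene, was at 0 in all 4 libraries. Most of the stromal sum was Pecam1, at 224 and 157 CPM in aged Tconv, against 327 and 363 CPM in young Tconv and not called, while Ccl21a was at 0 in all 4. The collagen gene Col1a1 was called higher, at 3.83 and 19.2 CPM in aged Tconv, against 0.422 and 0.165 CPM in young Tconv. The 9 genes of the Treg list summed to 2793 and 4610 CPM in aged Tconv, against 527 and 629 CPM in young Tconv. Of the 9, 5 were called higher (55.6% called, against 8.86% of all genes tested). Foxp3, the factor that defines Treg, was among them, at 334 and 675 CPM in aged Tconv, against 47.7 and 78.4 CPM in young Tconv, whereas Il2ra, which encodes CD25, was at 43.1 and 29.7 CPM in aged Tconv, against 31.8 and 63.2 CPM in young Tconv and was not called. The part of Treg and of these other cells in the changes below was not tested. In bulk RNA, fewer cells of a type and less RNA per cell cannot be told apart.

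The aged libraries also differed from each other. Xist, the RNA of the inactive X chromosome, stood at 2.94 and 1263 CPM in aged Tconv, against 2.39 and 2.64 CPM in young Tconv. The Y-linked Ddx3y was at 293 and 0.143 CPM in aged Tconv, against 329.7 and 240.5 CPM in young Tconv. Aged Tconv 2 therefore read as female, while aged Tconv 1 and both young libraries read as male. Aged Tconv 2 also carries the title tag L3, which the other 3 do not (L5 in aged Tconv 1, L4 and L5 in young Tconv); the meaning of the tag is not stated. The log2 CPM of aged Tconv 1 and 2 correlated with r = 0.9453 across genes, those of the young pair with r = 0.9805. Total estimated counts were 18358477 and 21564602 in aged Tconv, against 22617023 and 18937218 in young Tconv.

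Of 9495 genes tested, 841 (8.86%) were called at an adjusted p below 0.05 by edgeR's quasi-likelihood test, 606 (6.38%) higher and 235 (2.47%) lower in aged Tconv. The description below rests on those with a change of similar size in both aged libraries. For this, the gene had to be called, both aged libraries had to lie beyond both young ones, and the aged libraries could be at most 1 apart on the log2 CPM scale, a 2-fold difference. This held for 371 higher genes (3.91%) and 214 lower genes (2.25%), 585 in all. Just inside the limit lay Tuft1 (gap 0.9998) and Gna13 (0.99), and just outside it Mlf1 (1.001) and Abhd4 (1.003). In the 371 higher genes the median difference from the young mean was 1.40 in aged Tconv 1 and 1.87 in aged Tconv 2 on the log2 scale. In the 214 lower genes it was -0.57 in aged Tconv 1 and -0.95 in aged Tconv 2. Aged Tconv 2 lay further from young Tconv in 298 of the 371 and in 195 of the 214. The limit is wider than the median change of the lower genes, so a called lower gene seldom failed it: 214 of 235 passed, against 371 of 606 higher genes.

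These calls had limits that touch every gene below. The spread behind them was pooled over all 12 libraries, and the fit of the 4 wild-type Tconv libraries alone kept 3 of the 841 calls. Leaving out either young library left 0 calls by edgeR, with 1561 genes (without young Tconv 1) and 1898 genes (without young Tconv 2) at an unadjusted p under 0.05. Leaving out aged Tconv 2 left 82 higher and 11 lower calls, 59 of them among the 585, and leaving out aged Tconv 1 gave 1390 higher and 950 lower calls, 561 of them among the 585. A sex term kept 215 of the 585 calls and a term for the title tag 236. All 585 kept their direction in both fits. The rule had already placed both aged libraries beyond both young ones, so the kept direction adds no support. Aged and young groups did not overlap in 5614 genes (59.1%; 30.1% with aged higher and 29.1% with aged lower), so a lack of overlap alone says little with 2 libraries a group.

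**Figure D1:**
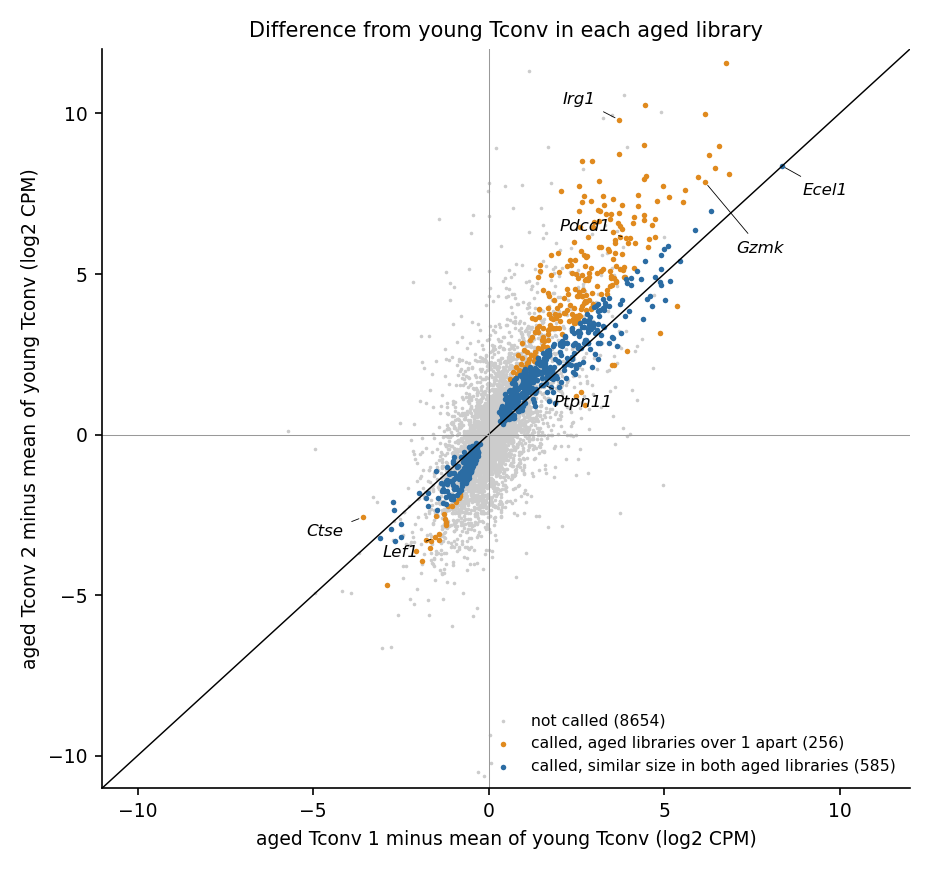
Difference of each gene from the mean of young Tconv in aged Tconv 1 (horizontal axis) and aged Tconv 2 (vertical axis), in log2 CPM, 1 point per gene tested. Blue points are the 585 called genes of similar size, which lie along the line of equality; orange points are the 256 other called genes, most of them above that line among the higher genes, and grey points were not called.

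Ptpn11 had the smallest p-value of all genes and nearly the same level in both aged libraries. It encodes SHP-2, a tyrosine phosphatase that binds activated receptors, PD-1 among them, and that acts upstream of Ras and ERK. Ptpn11 stood at 658 and 661 CPM in aged Tconv, against 223 and 226 CPM in young Tconv (mean 659.9 ± 2.06 CPM in aged and 224 ± 2.19 CPM in young Tconv, SD, n = 2 each). This was a log2 fold change 1.56 with an SE of 0.11, adjusted p 0.00534 by edgeR. The gap between the aged libraries was 0.0064 on the log2 scale. The gene lies on mm10 chromosome 5, from 121130533 to 121191397 on the minus strand. Under a sex term the log2 fold change was 1.52 (edgeR adjusted p 0.00459), under a tag term 1.45 (edgeR adjusted p 0.00471), and without aged Tconv 2 it was 1.55 (edgeR adjusted p 0.0141). It was 1.55 without either young library, where no gene was called (edgeR adjusted p 0.122 without young Tconv 1 and 0.109 without young Tconv 2). Its level in the young Tconv labelled Dcaf1-deficient was 233 CPM in both libraries.

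The promoter of Ptpn11 is printed from RefSeq (GRCm38.p6) because the ETS core found in it is counted over all promoters further on. It runs from 120 bases before to 30 bases after the start, 5′ to 3′ on the gene's strand, and capitals mark CGGAAG or its reverse CTTCCG, the core that ETS-family factors bind. The window is chr5:121191368-121191517 (minus strand).
Ptpn11: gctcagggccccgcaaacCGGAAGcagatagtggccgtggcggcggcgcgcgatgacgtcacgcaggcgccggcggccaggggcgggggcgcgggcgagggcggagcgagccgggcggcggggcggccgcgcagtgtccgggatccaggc
The window holds 1 match.

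Further tyrosine phosphatases were called higher. Of 23 tested genes named Ptpn or Ptpr, 4 were called higher (17.4% called, against 8.86% of all genes) and 0 lower, and the median log2 fold change was 0.52, against -0.0017 over all genes. Ptpn13, a large cytosolic phosphatase, stood at 233 and 396 CPM in aged Tconv, against 30.4 and 32.4 CPM in young Tconv (log2 fold change 3.32 with an SE of 0.45, adjusted p 0.0151 by edgeR). Ptpn1, known as PTP1B, stood at 539 and 663 CPM in aged Tconv, against 346 and 339 CPM in young Tconv (log2 fold change 0.81 with an SE of 0.11, adjusted p 0.0159 by edgeR). For both, aged Tconv 2 was the higher of the aged pair. The fourth, Ptpn5, best known from brain, was at 49.1 and 102 CPM in aged Tconv, against 4.41 and 2.48 CPM in young Tconv, with the aged libraries 1.05 apart on the log2 scale.

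Dual-specificity phosphatases, which inactivate MAP kinases, went both ways: 3 of 16 were called higher and 2 lower (31.2% called, against 8.86% of all genes). Their median log2 fold change was 0.71. The 2 lower ones were of similar size in both aged libraries. Dusp2, a nuclear phosphatase of ERK induced in activated lymphocytes, stood at 229 and 193 CPM in aged Tconv, against 528 and 533 CPM in young Tconv (log2 fold change -1.33 with an SE of 0.15, adjusted p 0.0126 by edgeR; chromosome 2, from 127336159 to 127338376). Dusp7 stood at 42.4 and 25.8 CPM in aged Tconv, against 78.8 and 82.1 CPM in young Tconv (log2 fold change -1.24 with an SE of 0.25, adjusted p 0.0276 by edgeR). The 3 higher ones all had aged libraries over 1 apart, for example Dusp4 at 30.2 and 123 CPM in aged Tconv, against 9.15 and 9.08 CPM in young Tconv. Dusp14 was at 8.94 and 31.7 CPM in aged Tconv, against 0.798 and 0.385 CPM in young Tconv. Among enzymes of phosphoinositides and diacylglycerol, 2 of 42 were called higher and 2 lower (9.52% called, close to the 8.86% of all genes; median log2 fold change -0.0083). Inppl1, which encodes the inositol phosphatase SHIP2, stood at 80.9 and 136 CPM in aged Tconv, against 22 and 27.3 CPM in young Tconv (log2 fold change 2.14 with an SE of 0.25, adjusted p 0.0126 by edgeR). Dgkd, a kinase that removes diacylglycerol, was at 455 and 349.9 CPM in aged Tconv, against 792 and 736 CPM in young Tconv. Pik3r1, the regulatory subunit of PI3 kinase, was at 219 and 121 CPM in aged Tconv, against 396 and 344 CPM in young Tconv. Both were called lower.

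Ras and its partners formed a set that was put together after their values had been seen, so it serves as a description only. Of its 15 tested genes, 5 were called higher and 4 lower. Over all genes 8.86% were called, but a set picked by its values cannot be set against that share. Ksr1, a scaffold of the ERK cascade, stood at 174 and 140.3 CPM in aged Tconv, against 48.3 and 53 CPM in young Tconv (log2 fold change 1.64 with an SE of 0.17, adjusted p 0.0126 by edgeR). Ralgds, an exchange factor of the small G protein Ral, was at 94.1 and 141 CPM in aged Tconv, against 35.7 and 35.5 CPM in young Tconv. The log2 fold change of Ralgds was 1.73. Spry1, which restrains receptor signalling to Ras, was at 89.1 and 69 CPM in aged Tconv, against 16.2 and 13.7 CPM in young Tconv (log2 fold change 2.4 with an SE of 0.48, adjusted p 0.0276 by edgeR). Rasgrp1, the exchange factor that diacylglycerol recruits in T cells, was lower, at 438 and 237 CPM in aged Tconv, against 848 and 941 CPM in young Tconv (log2 fold change -1.41 with an SE of 0.26, adjusted p 0.0243 by edgeR). Nras stood at 129 and 129.7 CPM in aged Tconv, against 177 and 169.8 CPM in young Tconv. Rala was at 43.2 and 40.8 CPM in aged Tconv, against 67.1 and 72.8 CPM in young Tconv, and both were called lower.

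Other regulators of small G proteins and the cytoskeleton stood out by size. Tiam1, an exchange factor for Rac, stood at 353 and 392 CPM in aged Tconv, against 47.4 and 59 CPM in young Tconv (log2 fold change 2.81 with an SE of 0.41, adjusted p 0.0159 by edgeR; chromosome 16, from 89787111 to 90143769). The aged pair was 0.15 apart on the log2 scale. Gem, a small GTPase that inhibits voltage-gated calcium channels, had the second smallest p-value among genes of similar size, at 71.7 and 92.2 CPM in aged Tconv, against 8.26 and 9.9 CPM in young Tconv (log2 fold change 3.17 with an SE of 0.25, adjusted p 0.006 by edgeR; chromosome 4, from 11704457 to 11714752). Dock11 was called lower, at 312 and 274 CPM in aged Tconv, against 422 and 462 CPM in young Tconv. So was Arhgap1, at 216 and 177 CPM in aged Tconv, against 295 and 284 CPM in young Tconv. Of 28 myosin and tropomyosin genes 7 were called, all higher (25% called, against 8.86% of all genes). Only 3 of the 7 were of similar size, and the median log2 fold change over the 28 was -0.12. Regulators of G protein signalling had 3 of 15 called, all higher (20% called, against 8.86% of all genes). Their median log2 fold change was -0.07, with 7 of 15 above 0. Among the called ones, Rgs16 was at 287 and 552 CPM in aged Tconv, against 12.6 and 13.3 CPM in young Tconv. Rgs3 was at 319 and 372 CPM in aged Tconv, against 173 and 185 CPM in young Tconv. G protein-coupled receptors for purines, lipids and related ligands had 5 of 52 called, all higher (9.62% called, close to the 8.86% of all genes; median log2 fold change 0.07, with 27 of 52 above 0). Gpr155 was at 80.5 and 115 CPM in aged Tconv, against 28.8 and 33.6 CPM in young Tconv.

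The 12 largest increases among genes of similar size, outside the exhaustion and senescence lists, were mostly genes with low levels in young Tconv. Ecel1, a membrane metalloprotease known from neurons, stood at 62.7 and 63.8 CPM in aged Tconv, against 0.0939 and 0.11 CPM in young Tconv (log2 fold change 9.21 with an SE of 1.35, adjusted p 0.0159 by edgeR; chromosome 1, from 87147655 to 87156521). The young values are close to what 3 counts over the group would give, 0.0760 CPM, so the size of the fold rests on very few counts. Ppp2r2c, a regulatory subunit of the phosphatase PP2A best known in brain, was at 9.28 and 14.3 CPM in aged Tconv, against 0 and 0.055 CPM in young Tconv. That is 467 counts in aged and 1 in young Tconv, a ratio of 472 with a 95% Clopper-Pearson interval of 84.4 to 18700 that covers counting error only. Slc7a10, a carrier of small neutral amino acids found in brain and fat, stood at 51.5 and 72.5 CPM in aged Tconv, against 0.939 and 0.66 CPM in young Tconv (log2 fold change 6.26 with an SE of 0.65, adjusted p 0.0126 by edgeR; chromosome 7, from 35186385 to 35201114). That both aged libraries lay above both young ones in these genes follows from the rule for similar size.

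Some of the 12 encode matrix or secreted proteins. Ltbp4, which binds latent TGF-beta, stood at 10.4 and 18 CPM in aged Tconv, against 0.329 and 0.165 CPM in young Tconv (log2 fold change 5.8 with an SE of 0.61, adjusted p 0.0126 by edgeR). Tnc, the matrix protein tenascin-C, was at 11.1 and 6.27 CPM in aged Tconv, against 0.235 and 0.275 CPM in young Tconv (log2 fold change 5.06 with an SE of 0.67, adjusted p 0.0141 by edgeR). Serpina9, a serine protease inhibitor, stood at 48.8 and 40.7 CPM in aged Tconv, against 1.36 and 1.71 CPM in young Tconv (log2 fold change 4.86 with an SE of 0.67, adjusted p 0.0158 by edgeR). Bzrap1, of the RIM-binding protein family, reached the highest level of the 12, at 436 and 730.3 CPM in aged Tconv, against 16.1 and 9.68 CPM in young Tconv (log2 fold change 5.49 with an SE of 0.82, adjusted p 0.0159 by edgeR). Fam160a1 was one of the most even, at 73.6 and 71 CPM in aged Tconv, against 1.27 and 1.98 CPM in young Tconv (log2 fold change 5.48 with an SE of 0.77, adjusted p 0.0159 by edgeR; chromosome 3, from 85660061 to 85817291). The remaining members, Ccdc120, Nap1l3, Ypel4 and Rgs16, had log2 fold changes of 5.74, 5.51, 4.9 and 5.01. Of the 12 increases, 11 stayed called under the sex term and 11 under the tag term; in the fit of the 4 wild-type Tconv libraries alone it was 1, and without aged Tconv 2 it was 6.

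The 12 largest decreases were taken, by the rule for named genes, from those with a mean of at least 4 CPM in young Tconv. Several belong to metabolism. Pdk1, a kinase that shuts off pyruvate dehydrogenase and so keeps pyruvate out of the mitochondrial cycle, stood at 218 and 149 CPM in aged Tconv, against 602 and 582 CPM in young Tconv (log2 fold change -1.69 with an SE of 0.21, adjusted p 0.0126 by edgeR; chromosome 2, from 71873224 to 71903858). Acss2, which makes acetyl-CoA from acetate, stood at 49.5 and 37.5 CPM in aged Tconv, against 132 and 113 CPM in young Tconv (log2 fold change -1.5 with an SE of 0.23, adjusted p 0.0165 by edgeR). Ugcg, the enzyme that makes glucosylceramide, stood at 204 and 145 CPM in aged Tconv, against 502 and 483 CPM in young Tconv (log2 fold change -1.5 with an SE of 0.36, adjusted p 0.0427 by edgeR). Txnip, a restraint on glucose uptake and thioredoxin, was at 1378 and 716 CPM in aged Tconv, against 3574 and 2858 CPM in young Tconv (log2 fold change -1.62 with an SE of 0.34, adjusted p 0.0326 by edgeR; chromosome 3, from 96557957 to 96561883). In all of them aged Tconv 2 was the lowest library.

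Wbscr27, of the methyltransferase-like family, was the most even decrease, at 6.61 and 6.08 CPM in aged Tconv, against 21.5 and 22.3 CPM in young Tconv (log2 fold change -1.79 with an SE of 0.21, adjusted p 0.0126 by edgeR). Itm2a, a membrane protein induced during thymic selection, stood at 48.9 and 36.3 CPM in aged Tconv, against 119 and 125 CPM in young Tconv. Pydc4, a pyrin-domain protein, was at 34.8 and 19.5 CPM in aged Tconv, against 92 and 81 CPM in young Tconv. Aqp3, a channel for water and glycerol, stood at 4.78 and 2.57 CPM in aged Tconv, against 12.9 and 13.8 CPM in young Tconv. Gng12, a G protein gamma subunit, was at 8.11 and 4.85 CPM in aged Tconv, against 16.6 and 21.4 CPM in young Tconv. Acoxl, related to peroxisomal acyl-CoA oxidases, and Plekha6 were near 1 CPM or below in aged Tconv, at 0.944 and 0.57 CPM and 1.06 and 0.855 CPM, against 7.27 and 5.72 CPM and 6.71 and 6.05 CPM in young Tconv. Brdt, a bromodomain protein best known from testis, was at 2 and 2.28 CPM in aged Tconv, against 9.71 and 6.93 CPM in young Tconv. The log2 fold changes of these 8 ran from -3.1 in Acoxl to -1.52 in Itm2a. Of the 12 decreases, 8 stayed called under a sex term, 6 under a tag term, 2 without aged Tconv 2 and 0 in the fit of the 4 libraries alone.

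**Figure D2:**
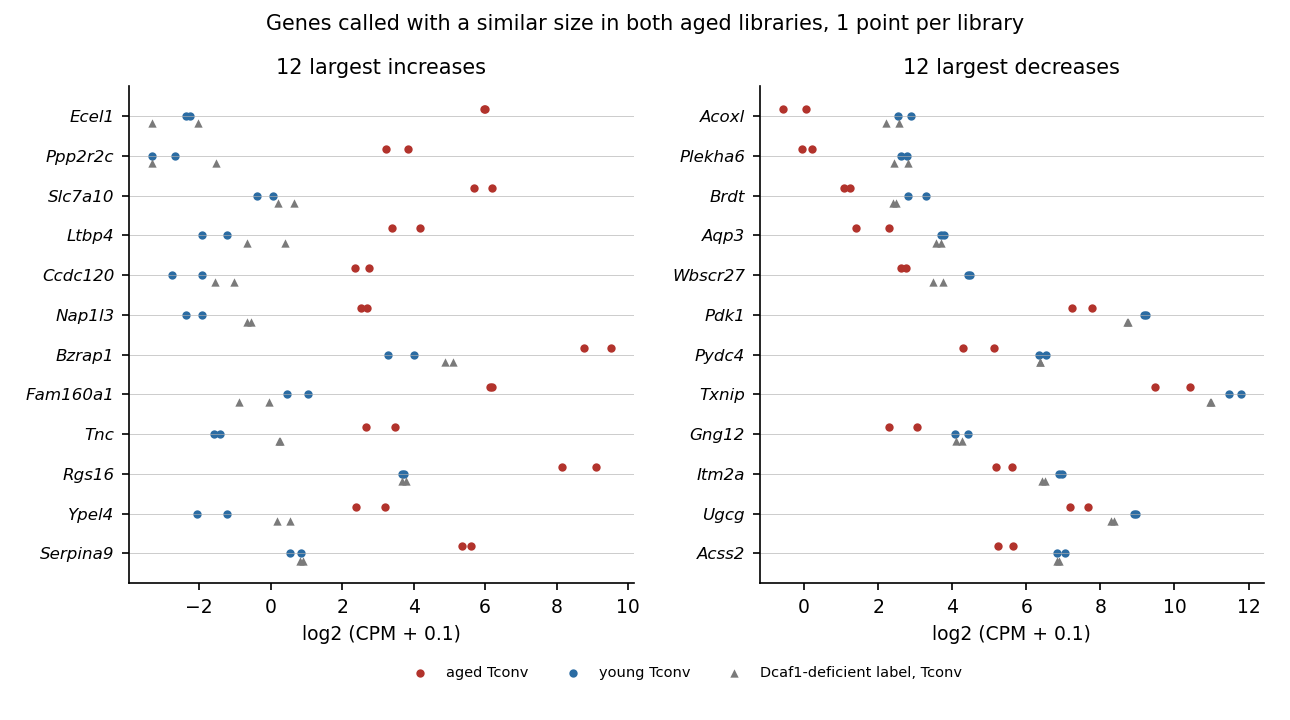
Level of the 12 largest increases (left) and the 12 largest decreases (right) among genes of similar size, as log2 of CPM plus 0.1, 1 point per library: aged Tconv (red), young Tconv (blue) and Tconv labelled Dcaf1-deficient (grey triangles). The 2 red points stand apart from the 2 blue ones in every gene, as the rule for similar size requires, and the grey triangles lie nearer the blue points.

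Cell surface families came next. Sialyltransferases, which cap glycans with sialic acid, had 4 of 12 genes called, all higher (33.3% called, against 8.86% of all genes). Their median log2 fold change was 0.82. St3gal2 stood at 72.4 and 97.1 CPM in aged Tconv, against 28.6 and 41.2 CPM in young Tconv (log2 fold change 1.28 with an SE of 0.22, adjusted p 0.0222 by edgeR). St6galnac4 was at 56.5 and 86.4 CPM in aged Tconv, against 35.4 and 35 CPM in young Tconv (log2 fold change 1.02 with an SE of 0.19, adjusted p 0.0248 by edgeR). St6galnac6 was at 11.8 and 16.1 CPM in aged Tconv, against 4.22 and 7.21 CPM in young Tconv, and the aged values of St3gal3, at 21.3 and 45.6 CPM in aged Tconv, against 11.1 and 13.4 CPM in young Tconv, were just over 1 apart on the log2 scale. Branching and elongating glycan transferases were split, with 3 of 33 called higher and 3 lower (18.2% called, against 8.86% of all genes). B3gnt2, which extends N-acetyllactosamine chains, stood at 277 and 445 CPM in aged Tconv, against 169 and 171 CPM in young Tconv (log2 fold change 1.09 with an SE of 0.21, adjusted p 0.0257 by edgeR). Galnt4, which starts O-linked glycans, stood at 24.9 and 19.4 CPM in aged Tconv, against 59.5 and 53.1 CPM in young Tconv (log2 fold change -1.35 with an SE of 0.18, adjusted p 0.0142 by edgeR).

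Tetraspanins, which organise membrane proteins into domains, had 3 of 17 called, all higher and all of similar size. This was 17.6% called, against 8.86% of all genes, and their median log2 fold change was 0.48. Cd82 was the most abundant, at 963 and 1322 CPM in aged Tconv, against 333 and 369 CPM in young Tconv (log2 fold change 1.7 with an SE of 0.25, adjusted p 0.0159 by edgeR). Cd81, a partner of several lymphocyte receptors, was at 82.1 and 162 CPM in aged Tconv, against 24.2 and 39 CPM in young Tconv (log2 fold change 1.95 with an SE of 0.41, adjusted p 0.0323 by edgeR). Tspan17 stood at 8.44 and 13.4 CPM in aged Tconv, against 1.03 and 0.605 CPM in young Tconv. S100 proteins, small calcium binders, had 3 of 9 called, all higher (33.3% called, against 8.86% of all genes). The fitted change was above 0 in all 9, against 49.5% of all genes, and the median of the 9 was 1.28. S100a11 stood at 351 and 638 CPM in aged Tconv, against 118 and 142 CPM in young Tconv. S100a10 was at 313 and 462 CPM in aged Tconv, against 199 and 219 CPM in young Tconv. S100a6, at 198 and 659 CPM in aged Tconv, against 40.4 and 60.4 CPM in young Tconv, differed by 1.74 on the log2 scale between the aged libraries. Serpins and cystatins, inhibitors of proteases, had 6 of 31 called, all higher (19.4% called, against 8.86% of all genes). Their median log2 fold change was 1.03. Cst7, the cystatin of cytotoxic lymphocytes, stood at 191 and 339 CPM in aged Tconv, against 28 and 30.4 CPM in young Tconv. Serpina3g and Serpinb6b have near-identical copies, so their own shares are uncertain.

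Receptors and secreted factors of similar size included Bmp7, a ligand of the TGF-beta superfamily, at 65.3 and 48.5 CPM in aged Tconv, against 11.2 and 11.8 CPM in young Tconv (log2 fold change 2.31 with an SE of 0.38, adjusted p 0.0204 by edgeR; chromosome 2, from 172868012 to 172940321). Of 7 Smad genes, a group formed after the values had been seen, 3 were called lower. Over all genes 2.47% were called lower, but a group picked by its values cannot be set against that share. Smad2, which carries TGF-beta signals, stood at 91.9 and 80.3 CPM in aged Tconv, against 120.2 and 119 CPM in young Tconv (log2 fold change -0.48 with an SE of 0.09, adjusted p 0.0248 by edgeR). Smad4, the partner of all receptor-driven Smads, stood at 141 and 108 CPM in aged Tconv, against 212 and 197 CPM in young Tconv. Smad5, which carries BMP signals, was at 87 and 70.2 CPM in aged Tconv, against 126 and 107 CPM in young Tconv, and both were called lower. Smad3 was at 194 and 278 CPM in aged Tconv, against 156 and 153 CPM in young Tconv, and was not called. In the whole pathway list, 4 of 23 were called higher and 3 lower (30.4% called, against 8.86% of all genes). Its median log2 fold change was 0.09. Tnfrsf8, the receptor CD30, stood at 8.11 and 10.2 CPM in aged Tconv, against 0.704 and 1.05 CPM in young Tconv (log2 fold change 3.38 with an SE of 0.38, adjusted p 0.0126 by edgeR). Adam19, a membrane metalloprotease, was at 338 and 487 CPM in aged Tconv, against 126 and 143 CPM in young Tconv (log2 fold change 1.62 with an SE of 0.26, adjusted p 0.0191 by edgeR). Both chains of the interleukin-10 receptor, paired after their values had been seen, were called higher. Il10ra was at 258 and 399 CPM in aged Tconv, against 93.3 and 158 CPM in young Tconv. Il10rb was at 123 and 134 CPM in aged Tconv, against 85 and 99.99 CPM in young Tconv.

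**Figure D3:**
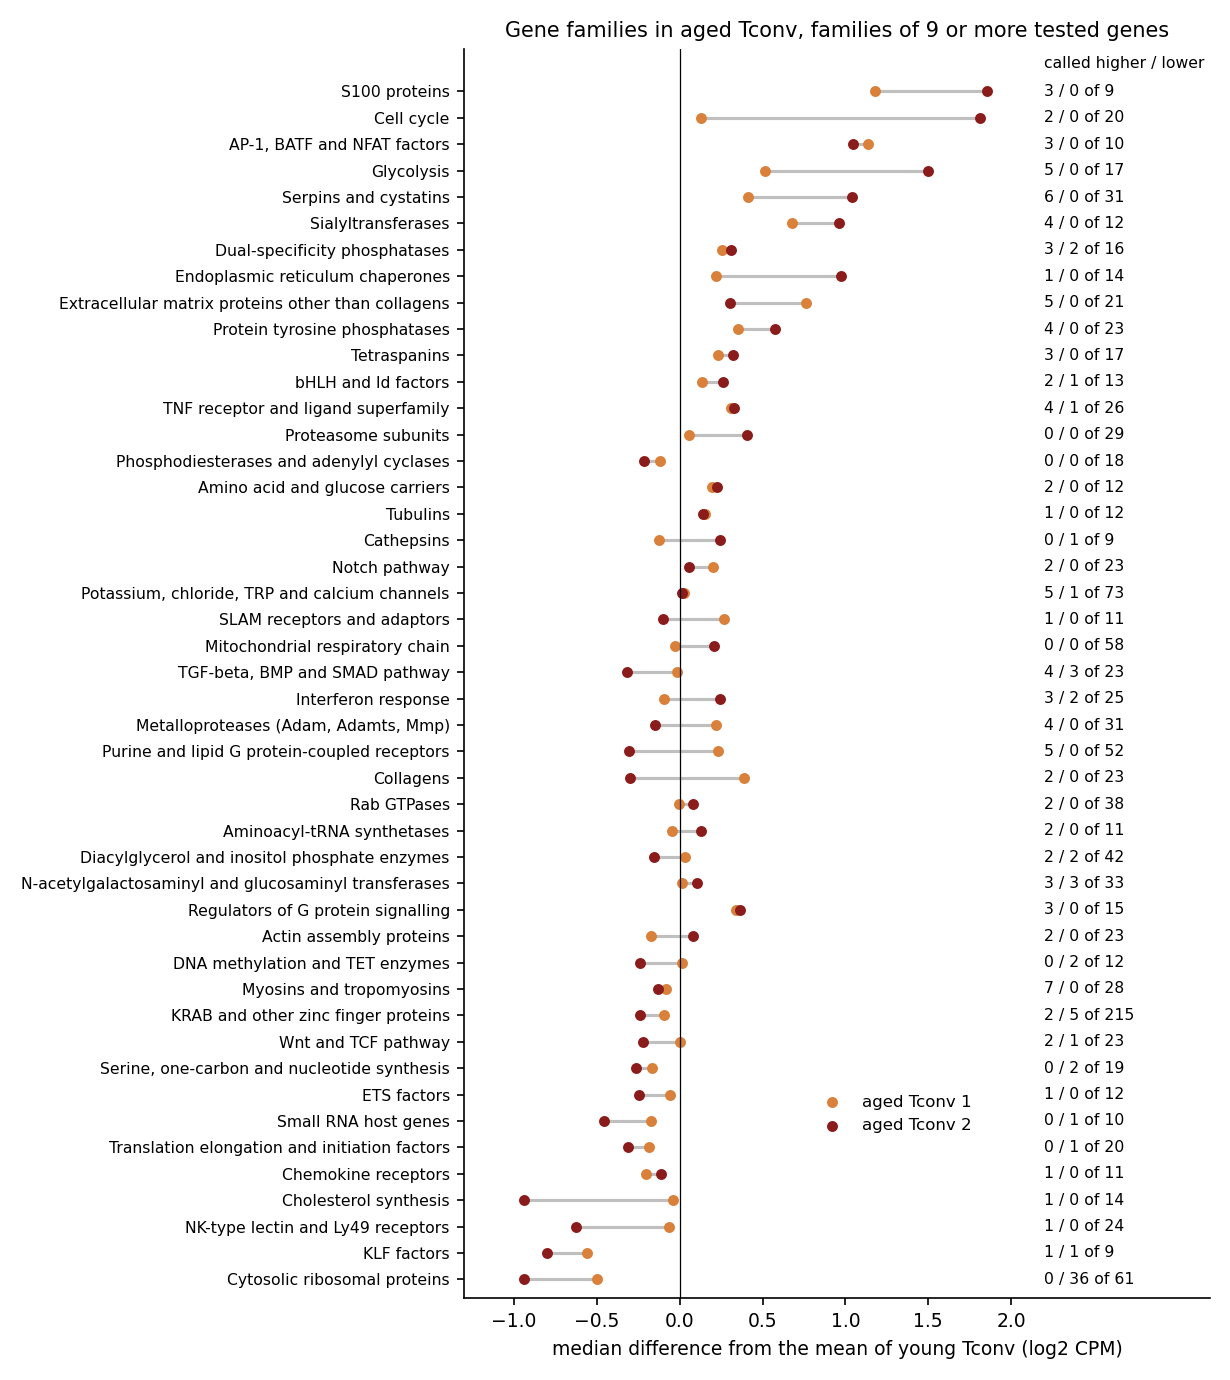
Median difference from the mean of young Tconv (log2 CPM) in aged Tconv 1 (orange) and aged Tconv 2 (dark red) for families with 9 or more tested genes, ordered by median fitted log2 fold change; at the right, how many members were called higher and lower of those tested. S100 proteins lead at the top and cytosolic ribosomal proteins stand at the bottom, and the 2 aged libraries lie far apart for cell cycle genes (medians 0.13 and 1.81).

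Among transcription factors, the list of AP-1, BATF and NFAT factors, which also held Irf4, had 3 of 10 called (30% called, against 8.86% of all genes). All 3 were higher and of similar size, Irf4 among them, and the median log2 fold change of the list was 1.06. Batf, a partner of Jun in effector T cells, stood at 180.2 and 319.7 CPM in aged Tconv, against 43.5 and 40.9 CPM in young Tconv (log2 fold change 2.57 with an SE of 0.45, adjusted p 0.0231 by edgeR). Irf4, which binds together with it, was at 138 and 178 CPM in aged Tconv, against 42.7 and 75.6 CPM in young Tconv (log2 fold change 1.42 with an SE of 0.33, adjusted p 0.0414 by edgeR). Mafg was at 29 and 52.3 CPM in aged Tconv, against 11.5 and 10.8 CPM in young Tconv. Etv6, a repressor of the ETS family, stood at 262 and 253 CPM in aged Tconv, against 68.2 and 102 CPM in young Tconv (log2 fold change 1.59 with an SE of 0.23, adjusted p 0.0159 by edgeR). Bhlhe40 was at 777 and 1070.4 CPM in aged Tconv, against 76.4 and 125 CPM in young Tconv (log2 fold change 3.2 with an SE of 0.69, adjusted p 0.0341 by edgeR). Krüppel-like factors were split: Klf4 was called higher, at 158 and 118 CPM in aged Tconv, against 30.6 and 47.1 CPM in young Tconv. Klf13 was called lower, at 449 and 247 CPM in aged Tconv, against 692 and 718 CPM in young Tconv, and 2 of the 9 tested had a fitted change above 0. Myc, the driver of growth and ribosome production, was lower at 56.8 and 64.9 CPM in aged Tconv, against 113 and 116 CPM in young Tconv (log2 fold change -0.91 with an SE of 0.19, adjusted p 0.0307 by edgeR). Of 215 zinc finger genes named Zfp, 2 were called higher and 5 lower (3.26% called, under the 8.86% of all genes), and 65 had a fitted change above 0.

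Genes of the ribosome were lower in aged Tconv. Of 61 tested genes of cytosolic ribosomal proteins, 36 were called lower and 0 higher (59% called, against 8.86% of all genes). Their median log2 fold change was -0.69, and 2 of the 61 had a fitted change above 0. The medians of the family were -0.50 in aged Tconv 1 and -0.94 in aged Tconv 2. Rpl35a stood at 813 and 646 CPM in aged Tconv, against 1290.4 and 1361 CPM in young Tconv. Rpl13 was at 1397 and 1097 CPM in aged Tconv, against 1994 and 2007 CPM in young Tconv. Rpl39 was at 811 and 686 CPM in aged Tconv, against 1147 and 1233 CPM in young Tconv. Of 20 tested elongation and initiation factors, 1 was called (5%, against 8.86% of all genes), and 5 had a fitted change above 0. The called one, the elongation factor subunit Eef1b2, was lower, at 948 and 753 CPM in aged Tconv, against 1425 and 1415 CPM in young Tconv (log2 fold change -0.74 with an SE of 0.13, adjusted p 0.0241 by edgeR). Single members are uncertain because processed pseudogenes share their sequence. Snhg6, a host of small nucleolar RNAs, was lower at 27.1 and 21.4 CPM in aged Tconv, against 38.9 and 35.7 CPM in young Tconv, and of 10 such host genes 0 had a fitted change above 0. Of aminoacyl-tRNA synthetases, which charge tRNAs, 2 of 11 were called higher and 0 lower (18.2% called, against 8.86% of all genes). As a family they changed little: the median log2 fold change was 0.04, with 6 of 11 above 0. Vars stood at 379.9 and 354 CPM in aged Tconv, against 252 and 238 CPM in young Tconv (log2 fold change 0.58 with an SE of 0.12, adjusted p 0.0328 by edgeR). Aars was at 106 and 149 CPM in aged Tconv, against 82.6 and 81.7 CPM in young Tconv, and only just called (adjusted p 0.049996 by edgeR).

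Promoters of these genes were examined for 12 short motifs on both strands, in windows of 250 bases before to 50 after the start; 7461 of the 9495 genes matched an entry by symbol. The ETS core, CGGAAG or CTTCCG, occurred in 20.8% of 289 promoters of genes higher with similar size and in 45.3% of 170 promoters of genes lower with similar size, against 29.3% of all promoters. Without ribosomal protein genes the share was 40.6% of the 143 remaining lower genes. Ribosomal protein genes held it in 67.4% of 46 tested and in 70.4% of 27 called lower. The GC box GGGCGG occurred in 65.1% of higher and 73.5% of lower genes, against 61.5% of all. The other motifs, T-box TCACACC, AP-1 TGANTCA, TCF/LEF CTTTGAA and CTTTGTT, forkhead TGTTTAC, the NF-kB site, NFAT TGGAAA, the interferon response element, E-box CACGTG and STAT TTCNNNGAA, occurred in fewer promoters than these. Apart from NFAT, each was in under 10% of all promoters, so a small count decides each share: the NF-kB site occurred in 3 of 289 promoters of higher genes (1.04%, against 0.201% of all), the interferon response element in 7 (2.42%, against 0.965%) and forkhead in 12 (4.15%, against 2.39%). The NFAT letters occurred in 21.5% of higher and 16.5% of lower genes, against 16.8% of all, and the E-box in 6.92% of higher and 12.9% of lower genes, against 9.46% of all. A match is only a description of these letters. Windows of 60 bases before to 30 after the start are printed for Rpl39 and Eef1b2, named by the rule for genes, and Rpl38, chosen after its values were seen for its 2 adjoining matches. They are from RefSeq GRCm38.p6, with matches in capitals: Rpl39 at chrX:37085193-37085282 (minus strand), Rpl38 at chr11:114668520-114668609 (plus strand) and Eef1b2 at chr1:63176771-63176860 (plus strand).
Rpl39: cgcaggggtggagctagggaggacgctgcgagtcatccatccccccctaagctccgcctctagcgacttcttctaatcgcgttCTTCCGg
Rpl38: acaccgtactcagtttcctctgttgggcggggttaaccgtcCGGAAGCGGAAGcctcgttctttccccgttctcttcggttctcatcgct
Eef1b2: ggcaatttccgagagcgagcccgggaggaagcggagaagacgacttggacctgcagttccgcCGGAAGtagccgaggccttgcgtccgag
Rpl38 itself stood at 530.1 and 447 CPM in aged Tconv, against 689 and 720.3 CPM in young Tconv (log2 fold change -0.53 with an SE of 0.11, adjusted p 0.0317 by edgeR).

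Other lists of cell functions differed in their share of calls, which was 8.86% over all genes. Of 58 genes of the mitochondrial respiratory chain and 29 of the proteasome, 0 were called by edgeR, and their median log2 fold changes were 0.09 and 0.23. Endoplasmic reticulum chaperones had 1 of 14 called. This was Hspa5, the chaperone BiP, at 1640.2 and 2312 CPM in aged Tconv, against 1053 and 984 CPM in young Tconv. Of the 14, 13 had a fitted change above 0. The median difference of the 14 from the young mean was 0.22 in aged Tconv 1 and 0.97 in aged Tconv 2. Glycolysis had 5 of 17 called higher (29.4% called, median 1.05), and 15 of the 17 had a fitted change above 0. Only Gapdh, at 1786 and 3068 CPM in aged Tconv, against 1028 and 1079.7 CPM in young Tconv, was of similar size. Tpi1 was at 161 and 758 CPM in aged Tconv, against 57.2 and 61.5 CPM in young Tconv, and thus much higher in aged Tconv 2. Cell cycle genes had 2 of 20 called, both higher (10% called, close to the share of all genes). Of the 20, 18 had a fitted change above 0 (median 1.16). Their median difference from the young mean was 0.13 in aged Tconv 1 and 1.81 in aged Tconv 2. Mcm6 was at 274 and 538 CPM in aged Tconv, against 158 and 159 CPM in young Tconv. Tk1 was at 21.7 and 41.3 CPM in aged Tconv, against 7.46 and 12.1 CPM in young Tconv. Interferon response genes had 3 of 25 called higher and 2 lower (20% called, median 0.08). Ifit2 was lower at 73.7 and 56 CPM in aged Tconv, against 137 and 156 CPM in young Tconv. Gbp3 and Gbp5, which share sequence, were higher.

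Some gene families held members that moved in opposite directions. These families were noticed after the values had been seen. By symbol, 18 name stems, with 45 genes in all, held at least 1 higher and 1 lower gene of similar size. A stem is only a shared start of the symbol, and stems such as Tmem and Ccdc need not mark related genes. The stem Zfp was left out. Stems whose genes all moved 1 way were not counted, so the 18 cannot be set against a background. Microtubule end-binding proteins gave a complete example. Mapre1, the most abundant, stood at 259 and 250.2 CPM in aged Tconv, against 315 and 341 CPM in young Tconv (log2 fold change -0.37 with an SE of 0.08, adjusted p 0.0386 by edgeR). Mapre2 stood at 116 and 202 CPM in aged Tconv, against 71.8 and 81.2 CPM in young Tconv (log2 fold change 1.06 with an SE of 0.25, adjusted p 0.0438 by edgeR). Mapre3 was at 30.2 and 45.2 CPM in aged Tconv, against 9.76 and 10.1 CPM in young Tconv (log2 fold change 1.93 with an SE of 0.43, adjusted p 0.0371 by edgeR). All 3 were called, Mapre1 lower, Mapre2 and Mapre3 higher. Pyruvate dehydrogenase kinases were similar: beside the lower Pdk1, Pdk3 was called higher at 39.1 and 58.9 CPM in aged Tconv, against 23 and 28.8 CPM in young Tconv (log2 fold change 0.92 with an SE of 0.2, adjusted p 0.0348 by edgeR), and Pdk2, at 14.6 and 17.3 CPM in aged Tconv, against 14 and 15.3 CPM in young Tconv, and Pdk4, under 1 CPM in all 4 libraries, were not called.

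The paired N-glycan branching enzymes Mgat4a and Mgat4b gave a further example. Mgat4a stood at 49.6 and 33.7 CPM in aged Tconv, against 85.6 and 84.6 CPM in young Tconv (log2 fold change -1.03 with an SE of 0.19, adjusted p 0.0248 by edgeR). Mgat4b was at 20.6 and 19.4 CPM in aged Tconv, against 9.53 and 11.4 CPM in young Tconv (log2 fold change 0.93 with an SE of 0.23, adjusted p 0.0451 by edgeR). Among peroxiredoxins, which remove peroxides, Prdx2 stood at 130.1 and 159.97 CPM in aged Tconv, against 95.4 and 106 CPM in young Tconv. Prdx6 was at 159.97 and 142 CPM in aged Tconv, against 229 and 236 CPM in young Tconv. Volume-regulated anion channel subunits differed as well, with Lrrc8a at 45.5 and 33.2 CPM in aged Tconv, against 93 and 93.3 CPM in young Tconv. Lrrc8d was at 68.7 and 78.8 CPM in aged Tconv, against 45 and 44.3 CPM in young Tconv. A different pattern held for Naip2, Naip5 and Naip6, sensors of bacterial proteins in the cytosol, which were all higher: Naip5 stood at 146 and 157 CPM in aged Tconv, against 15.9 and 27.9 CPM in young Tconv (log2 fold change 2.79 with an SE of 0.37, adjusted p 0.0142 by edgeR). Their sequences are near-identical, so the share of each is uncertain.

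**Figure D4:**
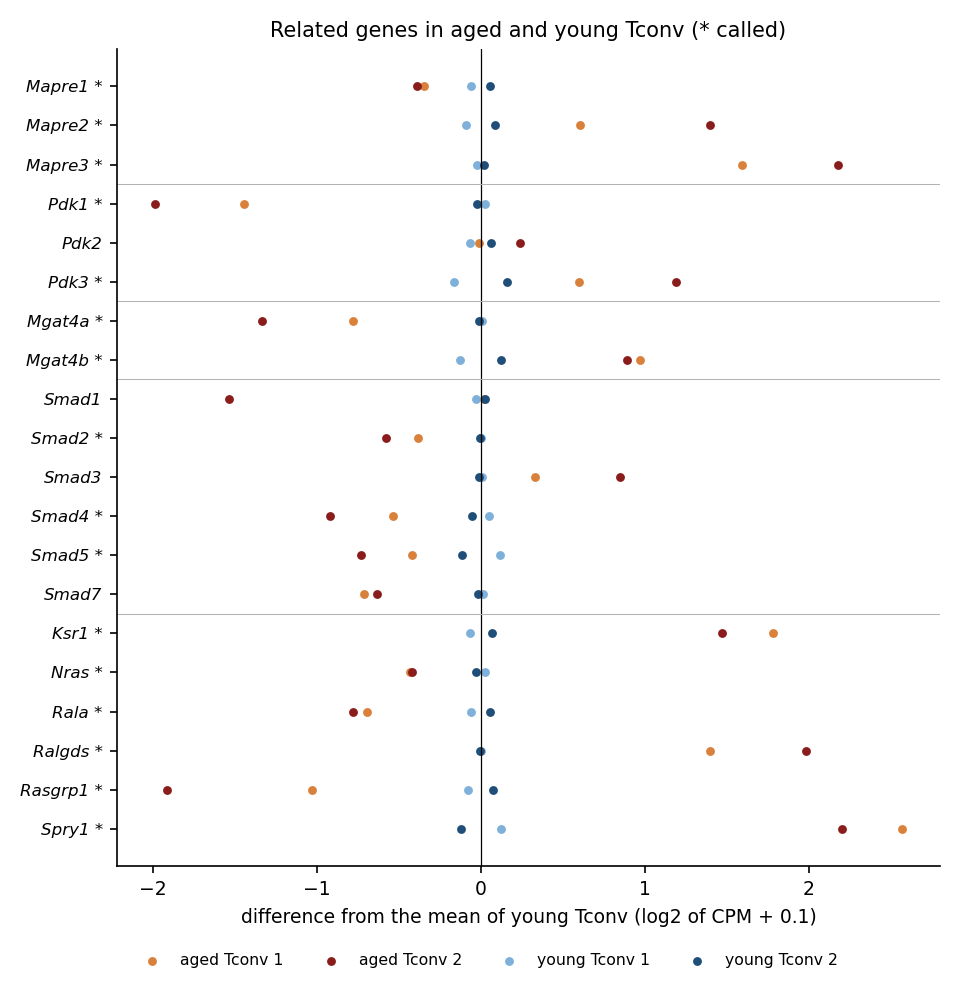
Difference of each library from the mean of young Tconv (log2 of CPM plus 0.1; aged 1 orange, aged 2 dark red, young light and dark blue) for related genes with a mean above 2 CPM in young Tconv: end-binding proteins, pyruvate dehydrogenase kinases, N-glycan branching enzymes, Smads, and the called genes of the Ras set named above; an asterisk marks a called gene. Mapre1, Pdk1 and Mgat4a lie left of 0 in both aged libraries, and Mapre2, Mapre3, Pdk3 and Mgat4b right of it.

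The 4 markers given for this comparison were all called, and all had aged libraries more than 1 apart. Eomes, a T-box factor of cytotoxic and memory cells, stood at 199 and 445 CPM in aged Tconv, against 15.9 and 16.3 CPM in young Tconv (gap 1.16 on the log2 scale; chromosome 9, from 118478212 to 118486132). Pdcd1, which encodes PD-1, was at 338 and 1574 CPM in aged Tconv, against 24.7 and 20.2 CPM in young Tconv (gap 2.22). Gzmk, a granzyme, was at 174 and 563 CPM in aged Tconv, against 2.35 and 2.31 CPM in young Tconv (gap 1.69). Lef1 was at 134 and 41.9 CPM in aged Tconv, against 408 and 366 CPM in young Tconv (gap 1.67). The direction was shared by both aged libraries and the size was not. In the exhaustion list, 17 of 23 tested genes were called higher (73.9% called, against 8.86% of all genes), and 10 of the 17 were of similar size. The senescence list had 10 of 33 called higher and 2 lower (36.4% called), of which 4 and 1 were of similar size. Naive T cell genes had 3 of 12 called, all lower (25% called), and 0 of the 12 had a fitted change above 0. Only Foxo1, at 323 and 168 CPM in aged Tconv, against 565 and 591 CPM in young Tconv, was of similar size. The sum over these 12 genes was 5052 and 1416 CPM in aged Tconv, against 8965 and 8818 CPM in young Tconv.

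The 256 called genes outside the similar-size set were mostly higher ones (235), and in 227 of these aged Tconv 2 lay further from young Tconv. The 6 widest gaps between the aged libraries were in genes headed by Irg1. This gene, which encodes the enzyme that makes itaconate, stood at 2.06 and 147 CPM in aged Tconv, against 0.0939 and 0.055 CPM in young Tconv. Cxcl3, a chemokine of neutrophils, was at 3.55 and 204 CPM in aged Tconv, against 0.0469 and 0.11 CPM in young Tconv. Il1rn, the interleukin-1 receptor antagonist, was at 7.5 and 359 CPM in aged Tconv, against 0.657 and 1.21 CPM in young Tconv. Hc, complement component C5, was at 3.33 and 199 CPM in aged Tconv, against 0.61 and 0.33 CPM in young Tconv. Dclk1 and Htr7 completed the 6, with gaps of 5.51 and 5.16. All 6 were far lower in aged Tconv 1 than in aged Tconv 2. The neutrophil list summed to 27.2 and 78.3 CPM in aged Tconv, against 22.8 and 22.1 CPM in young Tconv, and its defining gene S100a8 stood at 0.5 and 0.618 CPM in aged Tconv, against 0 and 0.66 CPM in young Tconv. The part of such cells in these genes was not tested.

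Treg of the same ages were set beside these genes. Their libraries were not in the contrast that chose the genes, but they were in the same fit and so entered the estimate of spread behind each call. Both aged Treg lay above both young Treg in 262 of the 371 higher genes (70.6%, against 20.2% of all genes) and below them in 15. Both lay below in 176 of the 214 lower genes (82.2%, against 22.4% of all genes) and above in 5. Aged Treg 1 stands apart: its log2 CPM correlated with r = 0.9926 with the first Treg library labelled Dcaf1-deficient and with r = 0.9142 with aged Treg 2. With young Treg 2 it was r = 0.9708. Genes of other cells were uneven in Treg. C1qa stood at 567 and 96.2 CPM in aged Treg, against 9.79 and 239 CPM in young Treg. Cd79a was at 497 and 12.9 CPM, against 14.8 and 680 CPM, and Hbb-bs at 1617 and 54.5 CPM, against 7.49 and 690 CPM. The part of such cells in the Treg values was not tested. With aged Treg 1 alone, 267 of the 371 lay above both young Treg and 189 of the 214 below. With aged Treg 2 alone, which like aged Tconv 2 reads as female and carries the tag L3, it was 336 and 190. Median fitted log2 fold changes of the 371 genes were 1.66 in Tconv and 0.71 in Treg, and those of the 214 were -0.75 in Tconv and -0.48 in Treg. No gene was called between aged and young Treg by edgeR (0 of 9495, with 1697 at an unadjusted p under 0.05).

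For no gene was the difference between the 2 age effects called by edgeR (0 of 9495, 0%), with 615 at an unadjusted p under 0.05, 128 called by DESeq2 and 1 by limma. Ptpn11 had one of the smallest adjusted p-values. Its level in Treg was 194 and 239 CPM in aged Treg, against 204 and 210.4 CPM in young Treg, a log2 fold change of 0.07, so the age effect was 1.49 larger in Tconv (SE 0.15, edgeR adjusted p 0.0626). Gem was at 21.6 and 31.2 CPM in aged Treg, against 16.4 and 20.04 CPM in young Treg, and its effect was 2.64 larger in Tconv (SE 0.33, edgeR adjusted p 0.0974). Ecel1 was also higher in aged Treg, at 9.05 and 44.1 CPM in aged Treg, against 0.188 and 0 CPM in young Treg. Wbscr27 had a log2 fold change of -1.79 in Tconv and -1.8 in Treg.

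**Figure D5:**
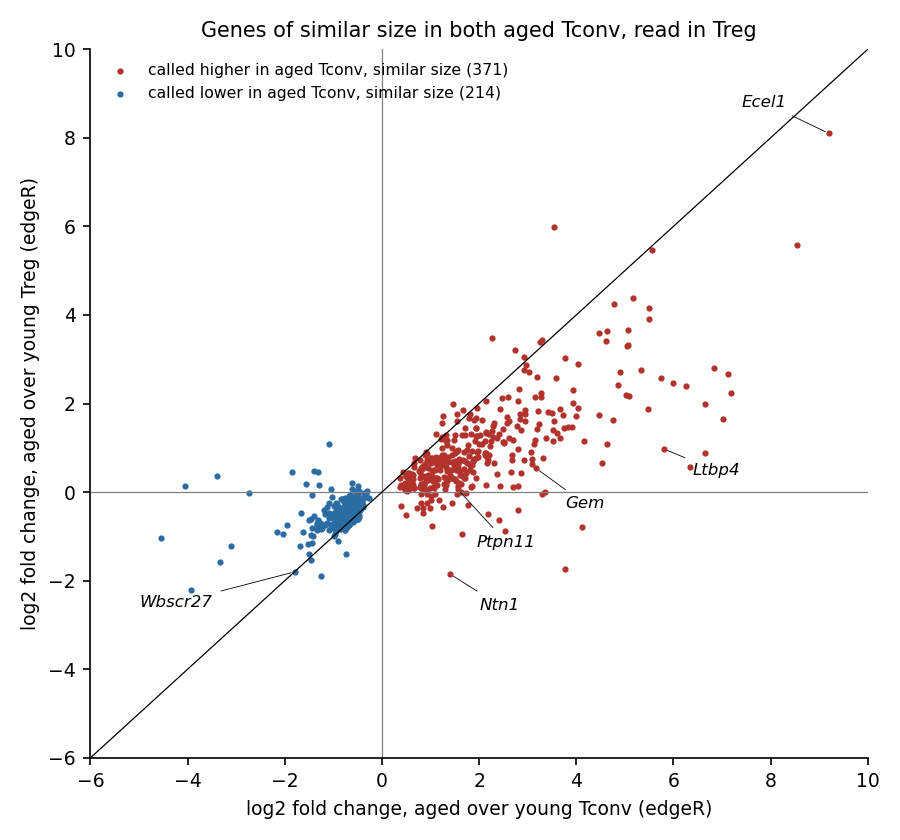
Fitted log2 fold change of aged over young in Tconv (horizontal axis) and in Treg (vertical axis) for the 371 higher (red) and 214 lower (blue) genes of similar size; the line marks equal change. Most points lie on the same side of 0 in both cell types and between the line and 0, with Ptpn11 near 0 in Treg and Ntn1 below 0.

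Young Tconv labelled Dcaf1-deficient share their controls with the comparison above, so their values are given side by side without a comparison of the 2 effects. Both libraries read as female and carry the tag L5. Dcaf1 itself, named Vprbp in the files, stood at 117 and 90.5 CPM in aged Tconv, against 147 and 144 CPM in young Tconv (log2 fold change -0.49 with an SE of 0.14, adjusted p 0.0672 by edgeR, not called) and at 132 and 132 CPM in the labelled libraries. For Ecel1, Slc7a10, Fam160a1, Rgs16 and Serpina9 the labelled libraries lay at 0.146 and 0 CPM, 1.46 and 1.06 CPM, 0.439 and 0.868 CPM, 13.8 and 12.6 CPM and 1.66 and 1.78 CPM, far below aged Tconv. A smaller number of genes lay near the aged values: Dusp2 at 256 and 234 CPM, Inppl1 at 97.1 and 92 CPM, Prr13 at 237 and 232 CPM, where aged Tconv had 227 and 251 CPM and young Tconv 104 and 114 CPM, and S100a10 at 439 and 452 CPM. These were picked after their values had been seen.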

How the data were processed

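RNA of sorted splenic CD4 T cells was sequenced in 12 libraries, 2 for each of 6 groups. Estimated counts per gene were deposited by the authors as a table from tximport, made with Salmon 0.9.1 per the submitters' processing notes, which also name the build mm10. A second deposited table of the authors holds expression values scaled with DESeq2 on a log2 scale; its exact transform is not given in the sources used here. Whether counting used strand is not given either.

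From the estimated counts, rounded to whole numbers, 9495 of 11486 genes with a count passed edgeR's filterByExpr, and 18 rows of the table carry date-like names in place of a gene symbol and are not named here. One quasi-likelihood fit over all 12 libraries with 6 group means (TMM scaling, edgeR 4.0.16, R 4.3.3, 6 residual degrees of freedom) gave every main test, with Benjamini-Hochberg adjustment over all genes at 0.05. Gaps between libraries are in log2 CPM with a prior count of 2. SE is the fitted log2 fold change over the root of the F statistic. DESeq2 1.42.0 on the same counts, limma 3.58.1 on the log2 values and the settings under the closing section were alternatives. Totals ran from 18358477 to 26852448 estimated counts per library; intervals and floors cover counting error only.

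Named genes were the 12 largest increases and 12 largest decreases of similar size with a mean of at least 4 CPM in the higher group, without receptor segments, unnamed genes and the exhaustion and senescence lists; the 6 widest gaps; up to 4 called members of each list with the smallest adjusted p; and a fixed set of markers. Other genes named were chosen after their values were seen, Prr13 and Smad4 among them. Some genes and families are not reported here. The members and all lists were chosen with earlier results of these data known. Gene spans are GENCODE's and promoter sequences RefSeq's for GRCm38.p6, the same build as mm10.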

Additional observations from a re-analysis of the deposited data

Results flagged for a closer look

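Among genes of similar size in both aged Tconv libraries, 20 (3.42%) had both aged Treg on the other side of both young Treg; over all genes tested, both aged Treg lay above both young Treg in 20.2% and below them in 22.4%. The difference between the age effects was tested for each and was not called by edgeR (adjusted p 0.0626 to 0.541). Of those higher in aged Tconv, the log2 fold changes in Tconv and in Treg were 1.40 and -1.85 for Ntn1, which encodes the guidance cue netrin-1, 3.77 and -1.74 for the noncoding RNA Rian, 1.66 and -0.94 for the exchanger gene Slc9b2, 2.54 and -0.87 for Klhl4, and 4.12 and -0.78 for Noxa1, an activator of NADPH oxidase. They were 1.03 and -0.76 for Plcl1, 0.49 and -0.51 for the lectin gene Clec2i, 0.84 and -0.48 for Usp6nl, 0.72 and -0.36 for the anion channel subunit Lrrc8d, and 0.98 and -0.35 for the potassium channel gene Kcnq5. They were 0.84 and -0.35 for Smap1, 1.26 and -0.34 for Pou2f2, which encodes the factor OCT-2, 0.40 and -0.31 for the myosin gene Myo18a, 1.77 and -0.30 for Pxmp2, and 0.80 and -0.24 for the kinase gene Nek7. Of those lower in aged Tconv, they were -1.10 and 1.09 for Gtf2ird1, -1.40 and 0.48 for Il1rl2, a receptor of interleukin-36, -1.31 and 0.46 for Calcrl, the calcitonin receptor-like receptor, -0.61 and 0.21 for Mtmr10, and -0.49 and 0.13 for Tmem9b. Each Treg value rests on aged Treg 1 and aged Treg 2, which differ from each other as given above.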

How the results depend on the processing

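Counts of calls depended on the fit; all counts are genes higher, lower, higher with similar size, lower with similar size and, last, with a different age effect in Treg. DESeq2 gave 1235, 815, 723, 691 and 128, a term for the title tag 340, 97, 195, 59 and 46, and a sex term 251, 52, 170, 48 and 2. The fit of the 6 Tconv libraries alone gave 123 lower and 116 lower with similar size, the fit of the 4 wild-type Tconv libraries alone 3, 0, 3 and 0 (1890 genes at an unadjusted p under 0.05), and limma 1 gene with a different age effect. Requiring a log2 fold change of at least 1 left 76 lower and 55 lower with similar size, and a largest gap of 0.5 left 203 higher with similar size. Leaving out 1 library at a time gave 0 to 1390 higher, 0 to 950 lower, 0 higher and 0 lower with similar size without either young library, and 0 to 112 with a different age effect. With the replicate block the counts were 593, 253, 355, 225 and 0. Deviations of same-numbered aged and young Tconv correlated at r = 0.0318, those of young Tconv and young Treg at 0.6765, of aged Tconv and aged Treg at 0.2713 and of young Tconv and aged Treg at -0.4623; since not every pair was over 0.1 and no label pairs them, the numbers were not taken as a pairing. Of the 585 genes of similar size, RLE scaling kept 579 calls, DESeq2 581, limma 545, the block 511, no filter 476, the 6 Tconv libraries 332 and the 4 libraries 3. Directions turned only in marker genes that were not called: under the tag term Cd4 was -0.058, Cd79a 0.51 and Xist -0.15, and under the sex term Xist was -0.19. Without 1 library at a time, log2 fold changes ran from -0.80 to 0.18 for Il2ra, -2.34 to 3.23 for C1qa, -2.31 to 0.77 for Cd79a, -1.298 to 3.84 for Hbb-bs, -0.23 to 6.63 for S100a8 and -10.91 to 0.041 for Ddx3y. The cause was not tested. With 2 libraries a group, small changes of genes with few counts were not detectable at this depth.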
